A study of Mus musculus with 4 samples.

Results

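The transcripts described here are 10 genes of connective tissue and smooth muscle, read on arrays of dendritic cells sorted from the lamina propria of the mouse colon. They are the fibrillar collagen genes Col1a1, Col1a2 and Col3a1, the collagen-binding matrix genes Dcn, Lum and Dpt, the growth factor receptor gene Pdgfra, the smooth muscle genes Acta2 and Myh11, and the thrombospondin gene Thbs4. They were taken by name and matched to the arrays by the RefSeq accession of each probe, which gave 10 of the 20637 genes named on the arrays, each with 1 probe. The set was chosen by signals of these same 4 arrays in part, since Thbs4 was selected on being higher on both arrays labelled KO and on both arrays of germ-free mice. All values are therefore a description, and no difference below carries a test.

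The study set CD300a deficient mice (KO) against wild-type mice (WT), both on the C57BL/6J strain, under germ-free (GF) and specific-pathogen-free (SPF) housing. CD300a is an inhibitory receptor of myeloid cells. The 4 groups were CD300a deficient GF, WT GF, CD300a deficient SPF and WT SPF, the GF mice being labelled male, the SPF mice female, and no treatment being labelled. Cells came from 5 mice in each condition and each group was read on 1 array, so no spread between mice is known and any gap between groups is a gap between arrays.

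Fibroblasts of the lamina propria and submucosa make the fibrous matrix of the gut wall. Type I collagen, built from the Col1a1 and Col1a2 chains, and type III collagen, the product of Col3a1, form its fibrils, and small leucine-rich proteoglycans such as decorin and lumican bind those fibrils and influence their spacing. Pdgfra marks many gut fibroblasts, whereas Acta2 and Myh11 encode contractile proteins of the muscle layers. Dendritic cells are not known as a main source of these transcripts.

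All levels below are log2 of the scanner's processed signal minus the 75th percentile of the same array, so a level of 0 equals that percentile. A level tells arrays apart for 1 probe and not probes apart, and fewer cells of a type cannot be told apart from less RNA per cell. Between 33064 and 36146 probes per array were well above background, the lowest of them at levels from -4.15 to -3.86, and no spot was saturated. Probes printed 10 times per array had a median SD of 0.09 to 0.10 between their spots, which makes the SD of a difference between arrays 0.13 to 0.14. That spread covers spot noise within an array only, and the number of arrays limits the precision.

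The labels were checked first. The Cd300a probe read 8.05 on the KO GF array against 7.60 on its WT partner, and under SPF housing 7.91 in KO and 7.88 in WT cells. No source at hand says whether this probe lies in the stretch that was deleted. The genotype therefore rests on the label, and the arrays are called KO-labelled. Xist, an RNA of female cells, was at 3.62 on the KO-labelled GF array, which is labelled male, and below background on the WT GF array. The Y-linked Ddx3y, Uty and Eif2s3y were above background on both GF arrays. On the KO-labelled SPF array, which is labelled female, Xist was at 5.45 and Eif2s3y at -2.56. The Y-linked Ddx3y and Uty were below background there. Signals of the KO-labelled arrays thus go against the labelled sex in part, on the SPF array by Eif2s3y alone. Both GF arrays shared 1 slide and scan and both SPF arrays another, so each genotype comparison lies within 1 slide, and housing cannot be told apart from slide, scan and labelled sex. Since Xist was detected on only 1 array of the GF pair, genotype under GF housing cannot be told apart from that sex signal.

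The 250 bases before the transcription start are printed for 3 genes, to show windows of genes with different patterns: Acta2, lower on both KO-labelled arrays, Col1a2, which took opposite directions in the GF and SPF pairs, and Thbs4. RefSeq starts on GRCm38.p6 were matched for 6 of the 10 genes (Col1a2, Col3a1, Dpt, Pdgfra, Acta2 and Thbs4). Each is written 5′ to 3′ on the strand of its gene. Capitals in Acta2 mark the CArG box, the motif of serum response factor, with at most 1 mismatch, and capitals in Col1a2 mark CCAAT. The mismatch was allowed only among the 6 central A or T bases of the box, never in its flanking CC and GG. The Acta2 window is chr19:34255374-34255623 on the minus strand, that of Col1a2 is chr6:4505368-4505617 on the plus strand, and that of Thbs4 is chr13:92794819-92795068 on the minus strand.
Acta2: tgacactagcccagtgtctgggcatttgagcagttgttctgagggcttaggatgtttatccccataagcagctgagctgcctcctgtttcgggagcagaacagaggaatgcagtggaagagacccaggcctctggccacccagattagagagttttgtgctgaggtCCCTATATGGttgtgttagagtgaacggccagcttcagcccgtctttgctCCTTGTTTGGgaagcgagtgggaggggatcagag
Col1a2: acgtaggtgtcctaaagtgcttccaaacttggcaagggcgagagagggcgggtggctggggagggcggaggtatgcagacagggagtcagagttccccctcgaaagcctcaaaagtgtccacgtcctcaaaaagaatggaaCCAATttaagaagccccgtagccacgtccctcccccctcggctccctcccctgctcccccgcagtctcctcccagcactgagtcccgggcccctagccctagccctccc
Thbs4: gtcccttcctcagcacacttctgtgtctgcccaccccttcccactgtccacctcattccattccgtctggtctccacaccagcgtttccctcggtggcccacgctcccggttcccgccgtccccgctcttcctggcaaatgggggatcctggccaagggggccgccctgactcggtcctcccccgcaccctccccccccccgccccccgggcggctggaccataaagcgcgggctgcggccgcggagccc
The Acta2 boxes begin 84 and 34 bases before the start, and the CCAAT of Col1a2 begins 109 bases before it. Over both strands of 32851 RefSeq promoter windows of the same length, 8.59% held a CArG box with at most 1 mismatch, 0.67% held at least 2, and 1.47% held a box without a mismatch. CCAAT stood in 33.9% and TATAAA in 12.4% of the windows. None of the 6 matched windows held a perfect CArG box, 2 held a box with at most 1 mismatch (Acta2, and Col1a2 at 228 bases before its start, left in lower case above), 1 held CCAAT and 1, that of Col3a1, held TATAAA 117 bases before the start. No motif overlapped another, and the Thbs4 window held none of these letters.

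All 10 probes were well above background on every array. The plot of levels by array shows that Thbs4 spanned by far the widest range of the 10 genes and came close to the detection floor on the WT SPF array only. The 7 fibroblast genes had their lowest level on the KO-labelled SPF array.

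**Figure D1:**
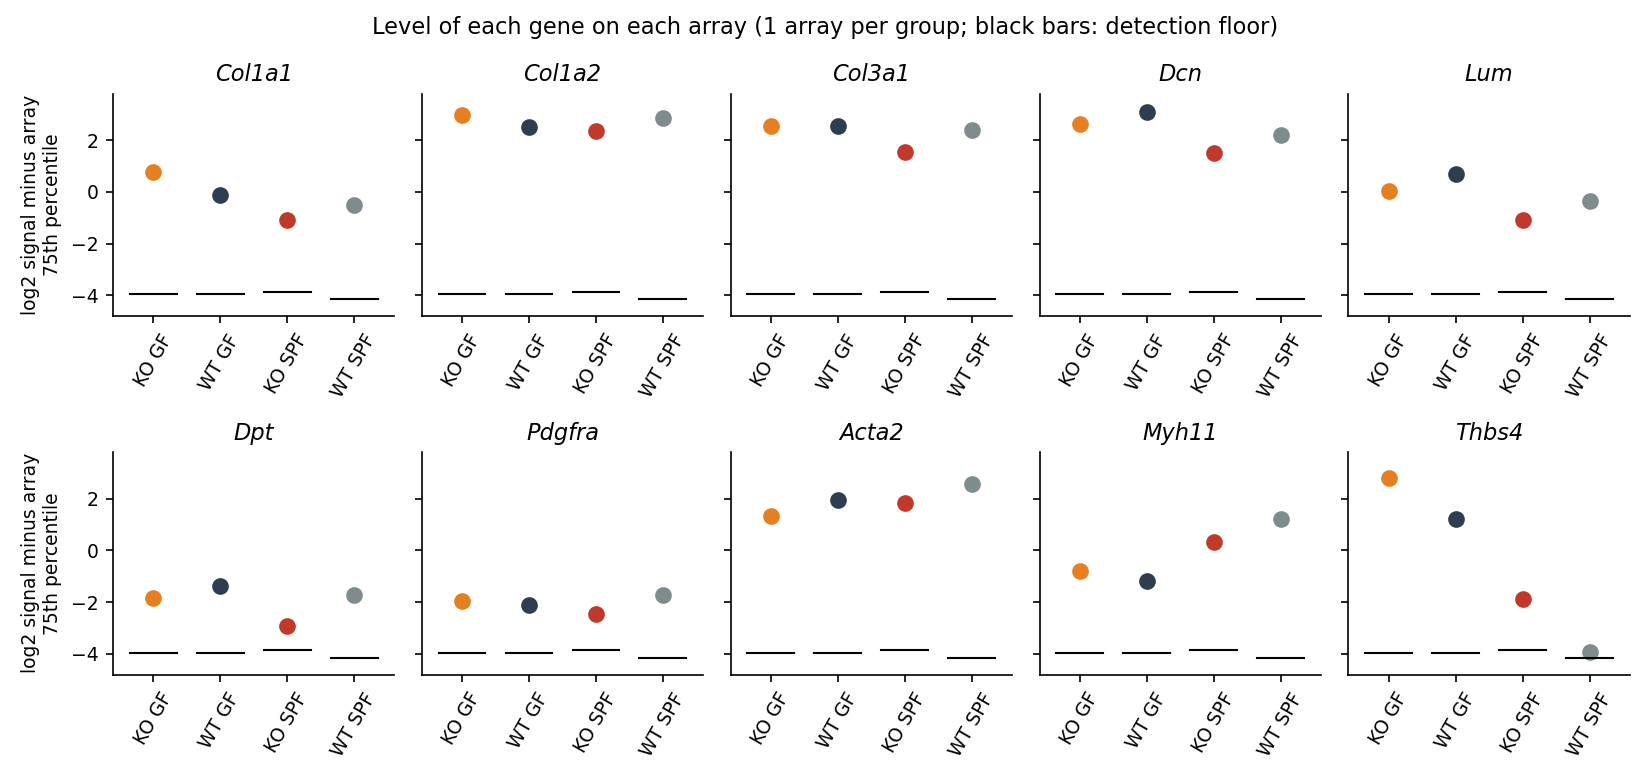
Level of each of the 10 genes on each array (y axis, log2 processed signal minus the 75th percentile of the array; 1 point per array, 1 array per group; black bars, the lowest level among probes well above background on that array). Thbs4 read 2.79 and 1.21 on the KO-labelled GF and WT GF arrays and -1.87 and -3.92 on the KO-labelled SPF and WT SPF arrays.

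Among the fibrillar collagens, Col1a1 on chromosome 11 read 0.76 in KO-labelled GF cells and -0.10 in WT GF cells, and -1.08 in KO-labelled SPF cells and -0.50 in WT SPF cells. It was thus highest in KO-labelled GF cells and lowest in KO-labelled SPF cells, with both WT arrays in between. The KO-labelled minus WT difference was 0.86 under GF and -0.58 under SPF housing. Its partner chain Col1a2, on chromosome 6, read 2.99 and 2.50 on the KO-labelled GF and WT GF arrays, and 2.34 and 2.87 on the KO-labelled SPF and WT SPF arrays. The same crossing was seen, with a genotype difference of 0.48 under GF and -0.53 under SPF housing, and the KO-labelled GF and WT SPF levels lay closer together than the SD of a difference between spots. Col3a1, on chromosome 1, read 2.54 and 2.53 on the KO-labelled GF and WT GF arrays, and 1.55 and 2.38 on the KO-labelled SPF and WT SPF arrays. Here the KO-labelled SPF array alone stood low, and the GF genotype difference, printed as 0.00 after rounding, was smaller than the spot SD of 0.13.

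Decorin and lumican, small leucine-rich proteoglycans whose genes both lie on chromosome 10, followed each other closely. Dcn read 2.64 and 3.10 on the KO-labelled GF and WT GF arrays, and 1.49 and 2.20 on the KO-labelled SPF and WT SPF arrays. Lum read 0.03 and 0.68 on the KO-labelled GF and WT GF arrays, and -1.09 and -0.35 on the KO-labelled SPF and WT SPF arrays. Both genes were lower on the KO-labelled array of each pair and higher on the GF array of each genotype, so their 4 levels stood in the same order. The genotype differences were -0.47 under GF and -0.71 under SPF for Dcn, and -0.65 and -0.74 for Lum. Centred on their own means, the profiles of Dcn and Lum differed by a root mean square of 0.07, the smallest of any pair of the 10 genes.

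Dpt encodes dermatopontin, a small matrix protein that binds decorin and takes part in collagen fibril assembly. It read -1.84 and -1.38 on the KO-labelled GF and WT GF arrays, and -2.93 and -1.71 on the KO-labelled SPF and WT SPF arrays. Its probe was printed 10 times, and the spots ran from -3.27 to -2.34 on the KO-labelled SPF array. On the WT SPF array they averaged -1.71 ± 0.18 (SD, 10 spots), and none of them overlapped the KO-labelled ones. The difference of -1.22, a 2.33-fold lower signal, was the largest decrease of the 10 genes in the SPF pair. It is a dim probe, with a processed signal of 21.0 and a scanner error of 16.0% on the KO-labelled SPF array, against 50.8 and 10.9% on the WT SPF array, and with the normexp background correction the difference was -0.41.

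Pdgfra, the receptor for platelet-derived growth factor that receives growth signals in mesenchymal cells, read -1.97 and -2.12 on the KO-labelled GF and WT GF arrays. It read -2.44 on the KO-labelled SPF array and -1.71 on the WT SPF array. Its 10 spots ran from -2.79 to -2.19 on the KO-labelled SPF array and from -2.01 to -1.45 on the WT SPF array and did not overlap. The spots of the GF pair did overlap, and that difference, 0.15, was -0.04 after quantile normalization. Pdgfra was thus clearly separated in the SPF pair alone, at -0.74, where the normexp setting gave -0.25.

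**Figure D2:**
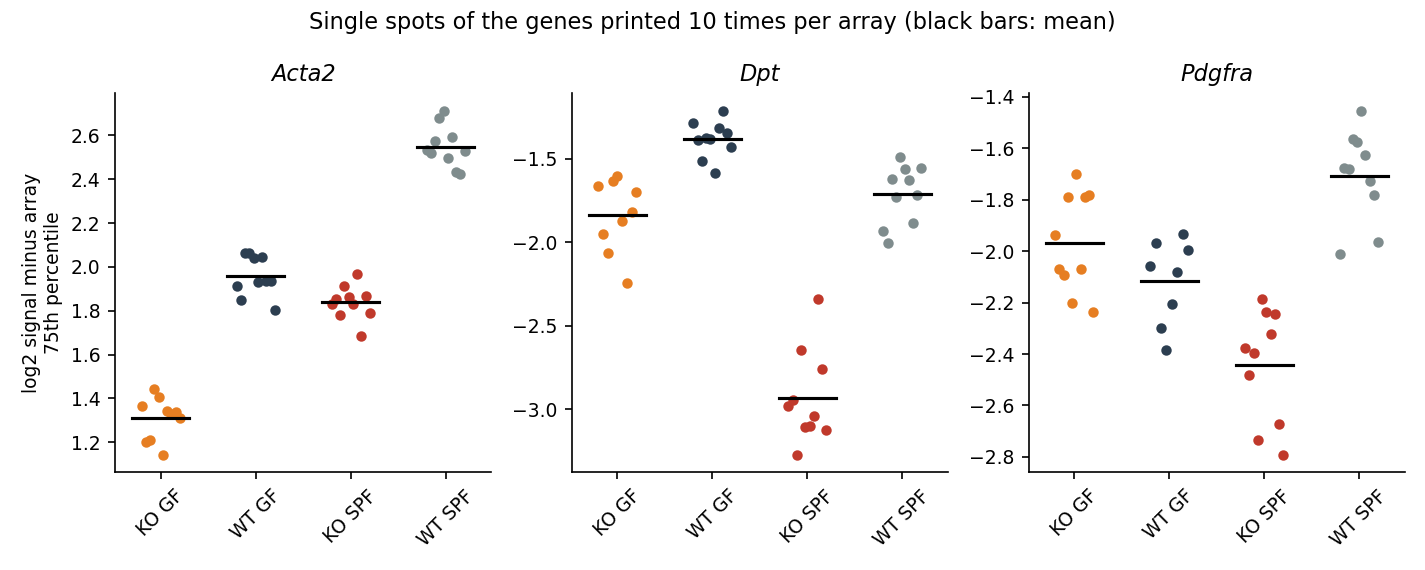
Single spots of the probes printed 10 times per array for Acta2, Dpt and Pdgfra (y axis, log2 processed signal minus the 75th percentile of the array; points, spots that were not outliers; black bars, their mean). The KO-labelled SPF spots lie below all WT SPF spots for the 3 genes, and for Pdgfra the KO-labelled GF and WT GF spots overlap. Spots of 1 array share its RNA and are not replicates of a condition.

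Acta2, which encodes the actin of smooth muscle and of myofibroblasts, read 1.31 ± 0.10 on the KO-labelled GF array and 1.96 ± 0.09 on the WT GF array (SD over 10 spots). It read 1.84 ± 0.08 on the KO-labelled SPF array and 2.55 ± 0.09 on the WT SPF array. No spot of a KO-labelled array reached the lowest spot of the WT array in the same housing, and the differences were -0.65 under GF and -0.71 under SPF. Acta2 was also lower on the GF array of each genotype, with differences of -0.53 in KO-labelled and -0.59 in WT cells.

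Myh11, the heavy chain of smooth muscle myosin, did not share that pattern. It read -0.78 and -1.17 on the KO-labelled GF and WT GF arrays, and 0.31 and 1.23 on the KO-labelled SPF and WT SPF arrays. It was low on both GF arrays and highest on the WT SPF array, with genotype differences of 0.39 under GF and -0.92 under SPF housing. Its GF signal was 2.13-fold lower than SPF in KO-labelled cells and 5.29-fold lower in WT cells.

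Thbs4 encodes thrombospondin-4, a calcium-binding glycoprotein of the matrix known from tendon and muscle. Its processed signal was 1428 in KO-labelled GF cells and 439.6 in WT GF cells, and 43.1 in KO-labelled SPF cells and 10.9 in WT SPF cells. The levels were 2.79 in KO-labelled GF, 1.21 in WT GF, -1.87 in KO-labelled SPF and -3.92 in WT SPF cells, high on both GF arrays and low on both SPF arrays. The WT SPF level lay 0.22 above the lowest level well above background on that array, and the scanner's own error there was 22.1% of the signal, against 11.6% for KO-labelled SPF and 10% for each GF array. The KO-labelled minus WT difference was 1.58 under GF, a 2.99-fold higher signal, and 2.05 under SPF, a 4.15-fold higher signal. Between housings it was 4.66 in KO-labelled cells and 5.13 in WT cells, 25.3-fold and 35.1-fold higher in GF. The folds against the WT SPF array rest on a signal near the floor, and with normexp the SPF genotype difference was 0.60 and the housing differences 3.38 in KO-labelled and 2.51 in WT cells.

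KO-labelled against WT cells under SPF housing asks what CD300a deficiency goes with in mice that carry a flora. In this pair 9 of the 10 genes were lower in KO-labelled cells and Thbs4 alone was higher. The median difference was -0.72, against -0.06 over all 14877 genes measured in the pair. Of all genes, 55.7% were lower by any amount. At 2-fold 12.2% differed, 5.61% higher and 6.61% lower, and of the 10 members 2 did, Thbs4 higher and Dpt lower. Without Thbs4, which was selected on these signals, the median of the other 9 was -0.74 and Dpt alone differed 2-fold. The 9 lower genes spanned -1.22 to -0.53, so that matrix and muscle genes lay in a narrow band.

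**Figure D3:**
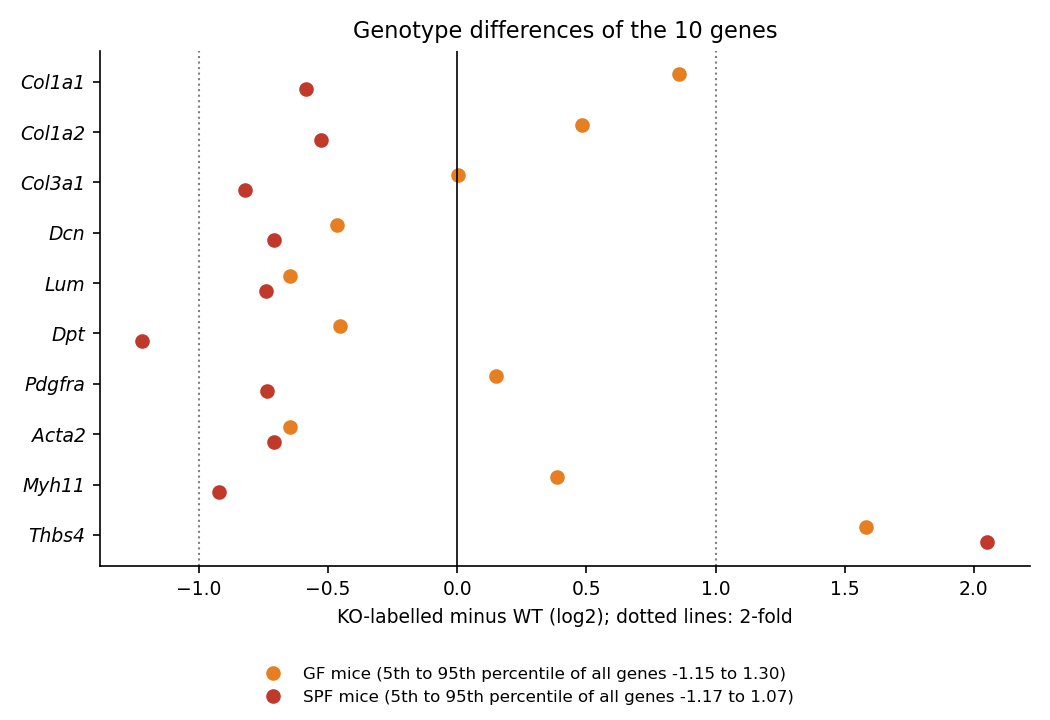
KO-labelled minus WT difference of each gene (x axis, log2; orange, GF pair; red, SPF pair; 1 array per group; dotted lines, 2-fold). In the SPF pair 9 genes lie between -1.22 and -0.53 with Thbs4 at 2.05, whereas in the GF pair 6 genes are higher and 4 lower.

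Other matrix genes of the SPF pair were mostly lower too, where 55.7% of all genes were lower by any amount. Read from the brightest probe of each gene, all 21 measured glycoprotein and proteoglycan genes outside the 10 were lower in KO-labelled cells, under each of the scalings run, with a median of -0.64. A dimmer probe of 1 of them, Vcan, was higher by 0.46. They ran from -2.07 for Spon1, an adhesive matrix protein, to -0.12 for Sparcl1, a relative of SPARC, and 3 were at least 2-fold lower; the other 2, Ogn at -1.65 and Efemp2 at -1.09, are named after their values were seen. Of 11 other collagen genes 7 were lower by their brightest probes, with a median of -0.34. They ran from -1.28 for Col6a3, a chain of microfibrillar type VI collagen, to 0.53 for Col8a1. A dimmer probe of Col14a1, counted as lower, read 0.11, and 1 of Col15a1, counted as higher, read -0.24. Among 13 genes that modify or crosslink collagen none differed 2-fold and 9 were lower. They ran from -0.79 for the crosslinking enzyme gene Loxl1 to 0.49 for the prolyl hydroxylase subunit gene P4ha1. Dimmer probes of Adamts2, Bmp1 and Loxl2, all counted as lower, were higher by 0.11, 0.13 and 0.22.

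Of 14 other contractile genes 11 were lower in KO-labelled SPF cells, where 55.7% of all genes were lower. A dimmer probe of 1 of them, Smtn, was higher by 0.37. The median was -0.49, or -0.41 with bounds. With bounds, a gene not detected on 1 of the arrays takes the smallest difference its signal allows. Contractile genes above background on both arrays ran from -0.86 for Des, the muscle intermediate filament desmin, to 0.34 for Synm. A second well-detected probe of Synm, a filament protein, read 1.31. Gut fibroblast genes were mixed. Counted with that bound, 2 of 17 were at least 2-fold higher and 1 at least 2-fold lower, and none under normexp. Without the bound 2 were higher and 3 lower, where 5.61% of all genes were higher and 6.61% lower. Fibroblast genes above background on both arrays ran from 1.43 for the mesenchymal transcription factor gene Foxf2 to -1.05 for the BMP antagonist gene Grem1. All 3 measured ligand genes of the PDGF family were lower, Pdgfc at -1.07 and Pdgfb at -0.20. The 14 proteases and their inhibitors leaned the other way, with a median of 0.32 and from -0.81 for Mmp9 to 1.29 for Mmp19, both matrix metalloproteinases. Of the other thrombospondin genes, Thbs1 was higher by 1.1 and Comp by 0.34, while Thbs2 was not well above background on any array.

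Markers of other cell types differed in the SPF pair as well. The summed signal of the 7 fibroblast markers, which are members here, was 12.1 in KO-labelled and 19.2 in WT cells, in units of the 75th percentile of the array, and that of the 6 smooth muscle markers was 11.5 in KO-labelled and 17.7 in WT cells. The 8 endothelial markers summed to 6.76 in KO-labelled and 9.65 in WT cells, with 6 of 8 lower and a median of -0.43. The 8 macrophage markers summed to 408.5 in KO-labelled and 476.4 in WT cells, also with 6 of 8 lower and a median of -0.29. Both counts are by the brightest probes, and 55.7% of all genes were lower. The 9 dendritic cell markers matched, all above background on every array, summed to 773.6 in KO-labelled and 752.8 in WT cells. On every array most of that sum came from H2-Ab1 and Cd74. By their brightest probes 7 of 9 were higher, with a median of 0.12, from -0.51 for Batf3 to 1.45 for Zbtb46. That median was smaller than the spot SD of 0.14. Under quantile normalization 4 were higher and 5 lower, and under the deposited scaling 5 were higher and 4 lower. The B and plasma cell markers were higher in KO-labelled SPF cells, Jchain by 2.22 and Cd79a by 1.84. They summed to 75.9 in KO-labelled and 16.5 in WT cells, mostly from Jchain. The part of these cell types in the matrix differences was not tested.

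KO-labelled against WT cells under GF housing asks the same without a flora. Here the 10 genes did not share a direction: 6 were higher and 4 lower in KO-labelled cells, with a median of 0.08 against -0.20 over 15697 genes, of which 39.0% were higher. The 3 fibrillar collagens ran from 0.00 to 0.86, while Dcn, Lum, Dpt and Acta2 ran from -0.65 to -0.46. Thbs4 alone of the 10 reached 2-fold, where 16.6% of all genes did, 8.8% higher and 7.77% lower. Without Thbs4, which was selected on these signals, 5 genes were higher and 4 lower, with a median of 0.00, and none reached 2-fold. This pair depends on the scaling. A 75th percentile taken over the probes well above background on all 4 arrays raised the median of all genes by 0.21, and the authors' deposited scaling raised it by 0.29.

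Related genes in the GF pair were divided as well. Of 12 other collagen genes 11 were higher in KO-labelled cells, with a median of 0.48, from -0.12 for Col4a1 of the basement membrane to 1.19 for Col18a1, whose second probe read 0.58. The 20 glycoprotein and proteoglycan genes had a median of 0.08, from -0.70 for the elastic fibre gene Efemp2 to 1.35 for Fmod, a collagen-binding relative of lumican. The 14 collagen modifying genes had a median of -0.31, with P4ha1 at -1.69 and the lysyl hydroxylase gene Plod2 at 0.65. For 12 contractile genes the median was -0.11, and it turned to 0.09 and 0.17 under the other percentile and the deposited scaling; Tpm2, a tropomyosin, was at -0.43 and Synm at 1.12.

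Fibroblast genes of the GF pair were even, 10 higher and 10 lower of 20, but 13 higher and 7 lower under both the percentile of detected probes and the deposited scaling, with the progenitor marker Pi16 at 1.20 and Foxf1 at -0.96. The 3 PDGF ligand genes ran from -0.86 for Pdgfc to 0.08 for Pdgfa. Proteases and inhibitors had a median of -0.86, or -0.83 with bounds. Of 13, 2 were at least 2-fold lower with bounds, Mmp9 and Mmp19, and none under normexp. Without bounds 4 were at least 2-fold lower, where 7.77% of all genes were. Mmp19 was at -1.57 and the inhibitor gene Timp3 at 0.62. Of the thrombospondins Thbs1 was at -0.36 and Thbs3 at 0.12.

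Fibroblast markers summed to 23.2 on both the KO-labelled GF and the WT GF array, and smooth muscle markers to 10.6 in KO-labelled and 12.4 in WT cells. Dendritic cell markers summed to 340.4 in KO-labelled GF and 560.3 in WT GF cells, with 8 of 9 lower and a median of -0.75. Macrophage markers summed to 226.4 in KO-labelled and 405.8 in WT cells with all 8 lower and a median of -0.71. Under the percentile of detected probes and the deposited scaling 7 of 8 were lower, with medians of -0.51 and -0.43. The dendritic cell medians were then -0.55 and -0.46. Of all genes, 39.0% were higher in this pair. Endothelial markers summed to 8.43 in KO-labelled and 13.6 in WT cells. Epithelial markers summed to 247.6 in KO-labelled and 177 in WT cells, with 9 of 10 higher in KO-labelled cells. Their part in the differences of the 10 genes was not tested.

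GF against SPF cells asks what goes with the absence of a flora, within the limit of slide, scan and labelled sex. In KO-labelled cells 8 of the 10 genes were higher in GF, and the 2 smooth muscle genes were lower. The median was 1.04 against 0.05 over 15572 genes, 5 genes were at least 2-fold higher and 1, Myh11, at least 2-fold lower, where 37.0% of all genes differed 2-fold, 21.6% higher and 15.4% lower, and 52.0% were higher by any amount. Col1a1 was higher by 1.84, Dcn by 1.15, Lum by 1.12 and Dpt by 1.09, and Col3a1, at 0.98, stood just under 2-fold. In WT cells 6 were higher and 4 lower, with a median of 0.24 against 0.13 over 15656 genes. There Thbs4 and Lum, at 1.03, were at least 2-fold higher and Myh11 at least 2-fold lower, where 26.9% of all genes differed 2-fold, 17.5% higher and 9.44% lower, and 56.4% were higher by any amount. Thbs4 was selected on these signals. Of the other 9 genes, 4 were at least 2-fold higher in KO-labelled cells, with a median of 0.98. In WT cells 1 of those 9 was, with a median of 0.16. Since the 4 comparisons share arrays, their differences are tied to each other by construction and stand side by side only.

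**Figure D4:**
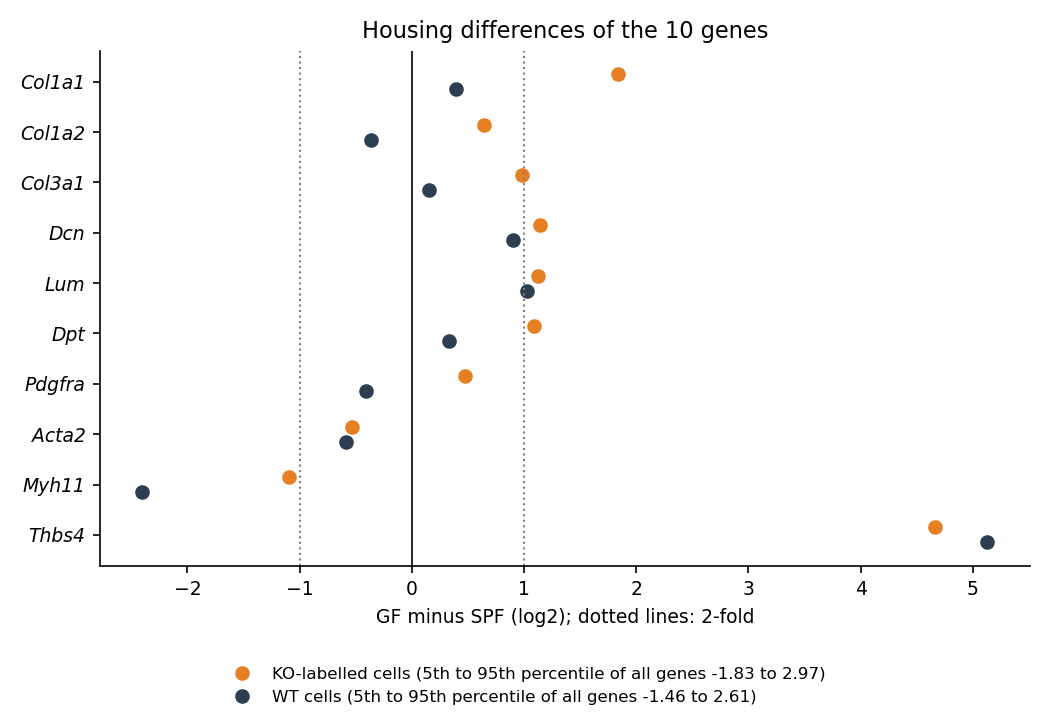
GF minus SPF difference of each gene (x axis, log2; orange, KO-labelled cells; dark blue, WT cells; 1 array per group; dotted lines, 2-fold). Thbs4 stands at 4.66 in KO-labelled and 5.13 in WT cells, Myh11 and Acta2 lie below 0 in both genotypes, and the fibroblast genes lie further to the right in KO-labelled than in WT cells.

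By their brightest probes, 13 of 13 other contractile genes were lower in GF in WT cells under each of the scalings run, with a median of -0.78, or -0.53 with bounds. They ran from -1.01 for Synpo2, an actin-binding protein of muscle whose second well-detected probe read -1.93, to -0.11 for Tagln. Probes of 1 gene did not always share the direction: Tpm1 read -0.45 from its brightest probe, whereas its other 4 probes, all above background, were higher in GF by 1.09 to 1.74. In KO-labelled cells the median was -0.14, changing sign under the other percentile and the deposited scaling, with Tpm2 at -0.70, where a second probe read 0.10, and the myosin light chain kinase gene Mylk at 0.51. Other collagen genes had medians of 1.11 in KO-labelled and 0.19 in WT cells, with Col8a1 highest at 3.40 in KO-labelled and 3.08 in WT cells and the lowest being Col15a1 at -1.09 in KO-labelled and Col14a1 at -1.34 in WT cells, where its second probe read -0.55. The glycoprotein and proteoglycan genes had medians of 0.48 in KO-labelled and -0.42 in WT cells, with Eln, the gene of elastin, at 2.27 and Emilin1 at -1.63 in KO-labelled cells, and Mfap5 at 1.19 and Spon1 at -3.72 in WT cells.

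Collagen modifying genes had housing medians of 0.35 in KO-labelled and 0.28 in WT cells. Loxl1 was highest in KO-labelled cells at 2.24, where its second probe read 0.76, and P4ha1 in WT cells at 1.69, where its second probe read -0.91. Of the fibroblast genes, counted with bounds, 1 of 20 was at least 2-fold higher in KO-labelled GF cells, Pdgfrb at 1.28, and 1 lower. In WT cells 4 of 19 were higher, with the tissue factor gene F3 at 1.74, and 3 lower. Without bounds 6 were higher and 1 lower in KO-labelled cells, where 21.6% of all genes were higher and 15.4% lower. In WT cells 5 were higher and 4 lower, where 17.5% of all genes were higher and 9.44% lower. Under normexp 0 were higher and 1 lower in KO-labelled cells, and 2 higher and 1 lower in WT cells. Podoplanin, Pdpn, was lowest in both, at -2.54 in KO-labelled and -1.80 in WT cells. Among PDGF ligands Pdgfc was higher in GF by 1.68 in KO-labelled and 1.46 in WT cells, and Pdgfb was at -1.38 in KO-labelled and -0.88 in WT cells, its second probe reading -2.23 in KO-labelled and -2.24 in WT cells. Of the proteases Mmp9 was highest at 2.58 and Mmp19 lowest at -3.86 in KO-labelled cells, and Adamts1 highest at 3.07 and Mmp14 lowest at -2.48 in WT cells.

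Other thrombospondins did not follow Thbs4 between housings. Thbs1, an inducible thrombospondin of many cell types, was at -4.18 in KO-labelled and -2.73 in WT cells, and Thbs3 was at 0.31 in KO-labelled and 0.59 in WT cells.

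**Figure D5:**
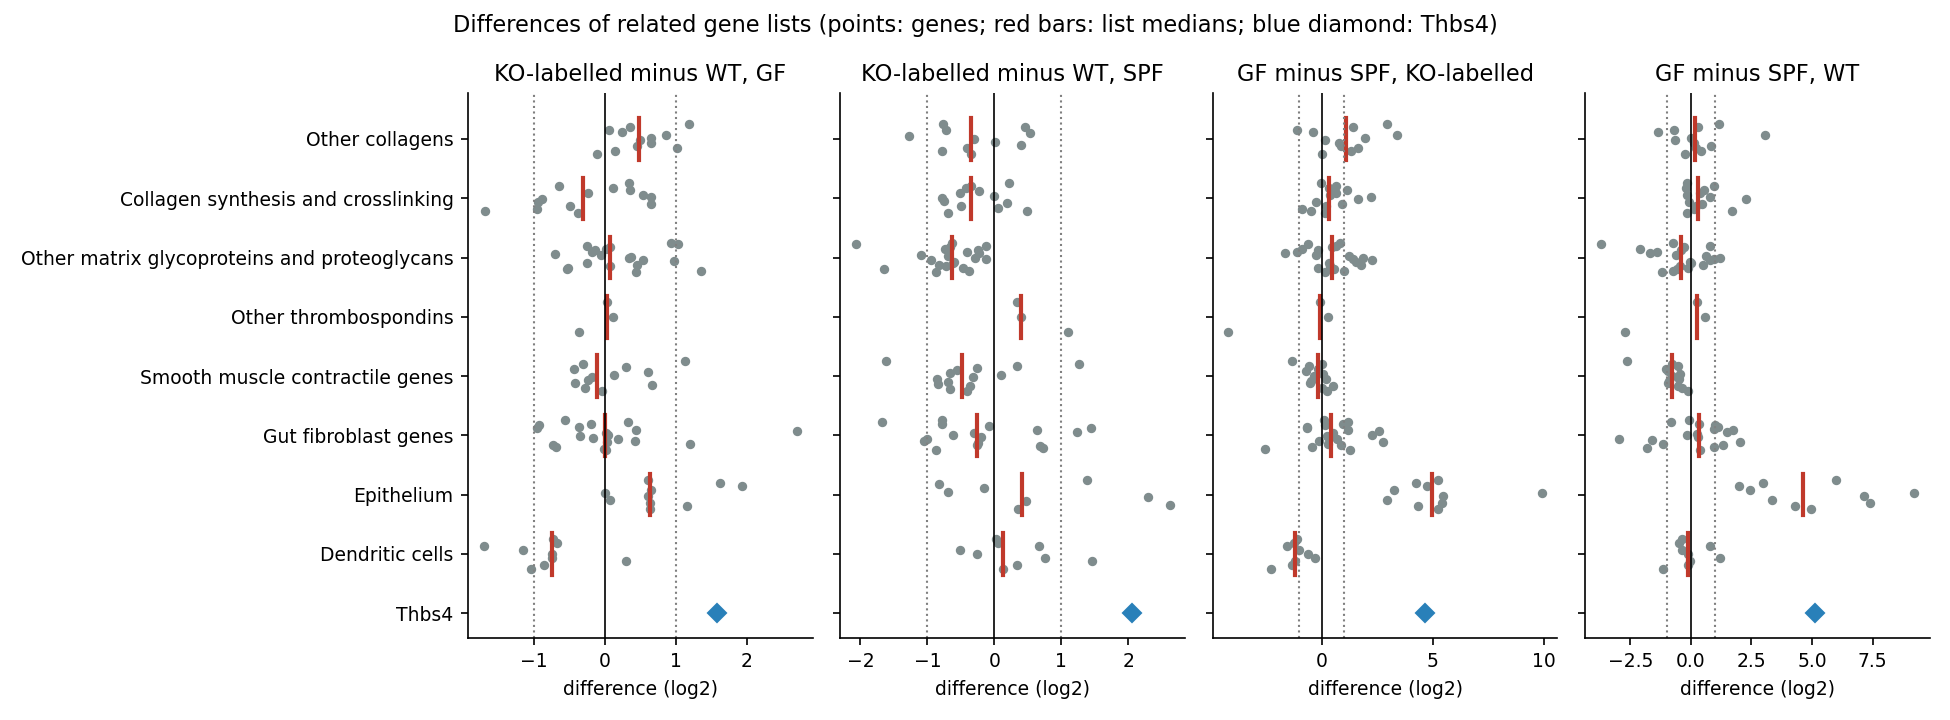
Differences of genes in related lists for each pair of arrays (x axes, log2, each panel with its own range; points, genes; red bars, list medians; blue diamonds, Thbs4; dotted lines, 2-fold). The glycoprotein and proteoglycan genes all lie below 0 in the SPF genotype panel, and the epithelial genes lie above 2-fold in both housing panels, where Thbs4 falls among them. Points of genes below background on 1 array show the measured difference, not its bound, which for Cdx2 in WT cells is under 2-fold.

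Epithelial markers were higher in GF. Counted with bounds, 10 of 10 were at least 2-fold higher in KO-labelled and 9 of 10 in WT cells. Without bounds 10 of 10 were in both, where 21.6% of all genes were in KO-labelled and 17.5% in WT cells. Under normexp 9 were in KO-labelled and 8 in WT cells. The medians were 4.97 in KO-labelled and 4.62 in WT cells, or 4.97 in KO-labelled and 4.16 in WT cells with bounds. Their summed signal was 247.6 on the KO-labelled GF and 177 on the WT GF array, against 6.26 on the KO-labelled SPF and 3.66 on the WT SPF array. Cdh1 and Cdx2 were below background on both SPF arrays. In the genotype pairs, where Thbs4 was higher in KO-labelled cells, 9 of 10 markers were higher under GF with a median of 0.64. Of all genes, 39.0% were higher in that pair. Under SPF housing 5 of 8 markers were higher with a median of 0.41, and 3 were lower, with Muc2 at -0.82. Of all genes, 55.7% were lower in the SPF pair. Their part in the Thbs4 difference was not tested.

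Markers of further cell types were read beside the 10 genes. Enteric glia had 5 and 3 of 5 markers above background on the KO-labelled GF and WT GF arrays, against 2 and 1 on the KO-labelled SPF and WT SPF arrays. No mesothelial marker of 4 was above background on any array. Pericytes had 3 of 5 markers above background on both GF arrays and the WT SPF array, and 2 on the KO-labelled SPF array. Kcnj8 and Abcc9 were below background on all arrays. Rgs5 was higher in GF by 0.65 in KO-labelled and 1.79 in WT cells, and Notch3 by 0.03 and 0.04. The 3 markers of interstitial cells of Cajal were above background on every array and summed to 5.07 and 5.37 in KO-labelled GF and WT GF cells, against 2.87 and 2.37 in KO-labelled SPF and WT SPF cells. In KO-labelled cells Kit was lower in GF, at -0.45, while Ano1 was at 3.58 and Etv1 at 1.32. In WT cells all 3 were higher by their brightest probes, and a second Etv1 probe read -0.29. B and plasma cell markers summed to 0.507 and 0.753 on the KO-labelled GF and WT GF arrays, against 75.9 and 16.5 on the KO-labelled SPF and WT SPF arrays. Dendritic cell markers were lower in GF in KO-labelled cells, 9 of 9 with a median of -1.20, where 52.0% of all genes were higher. Under quantile normalization their median was -0.86, and under the deposited scaling it was -0.86 with 8 of 9 lower. In WT cells 7 of 9 were lower and 2 higher, from -1.13 for Itgax to 1.21 for Irf4. The WT median of -0.13 was smaller than the spot SD of 0.14. The part of these cell types in the housing differences of the 10 genes was not tested.

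Among 15019 other named genes above background on at least 2 arrays, 4 of the 5 profiles most like that of Thbs4 over the 4 arrays, by root mean square difference after centring, were Atp10b, Wfdc2, Fbp2 and Hsd3b2. Wfdc2, at 0.17, exceeded background on all 4 arrays. Atp10b, Fbp2 and Hsd3b2 did so on the GF arrays alone, so their SPF levels were not measured, their place in this order rests on signals below background, and no distance is given for them. No other member came near, the differences between Thbs4 and the other 9 ranging from 2.12 to 3.51. The mean profile of those 9 was nearest to Zfp60 at 0.01, Vps33b at 0.02, Adck2 at 0.03, and Surf6 and AW146154 at 0.04. With 4 arrays, many genes lie close to any such profile.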

How the data were processed

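RNA of sorted colonic lamina propria dendritic cells was amplified with the Ovation Pico WTA System V2 and labelled with Cy3, per the labels' protocols. The deposited files hold spot intensities from 4 one-colour Agilent arrays, read with Feature Extraction 10.10.1.1 on a design annotated to mm9, per the file headers. The authors' deposited value table holds intensity on a linear, uncentred scale: each array's processed signal times 7.08 to 8.30, with column medians of 331.4, 235.7, 216.3 and 237.2 (KO GF, WT GF, KO SPF, WT SPF) and an unknown rule for the factor. It served as an alternative.

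Control spots (3671) and outlier spots were left out, spots of a probe averaged, and log2 processed signal minus the array's 75th percentile taken with Python 3.11.15, numpy 2.4.6 and pandas 2.3.3. Of 55597 probes 27191 were named through their RefSeq accessions in a GRCm38.p6 gene table, used for names and chromosomes only; 84 probes with only outlier spots were dropped. A gene of several probes is read from its brightest, and counts if well above background on at least 1 array of the pair. With 1 array per group no test was run. Alternatives were normexp (offset 50, limma 3.58.1, R 4.3.3), quantile normalization, other percentiles, the deposited table and other filters; normexp was run on median signals, a choice made after the data were seen. The members and gene lists were chosen with earlier results of these data known. Of each list, the highest and lowest gene above background on both arrays are named, with second probes where their sign is opposite and, for some, where their size differs. In list counts of 2-fold differences, a gene below background on 1 array is held to the smallest difference its signal allows, unless given without bounds. Shares over all genes and counts under normexp have no such bound, so bounded list counts do not compare with them. A neighbour of the Thbs4 profile is not reported here. Calculations were checked on simulated data.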

Additional observations from a re-analysis of the deposited data

Results flagged for a closer look

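Some of the 10 genes moved in opposite directions in 2 pairs of arrays, under each setting run. With 1 array per group these differences were not tested. Col1a1 differed by 0.86 between KO-labelled and WT cells under GF and by -0.58 under SPF housing, a gap of 1.44. For Col1a2 the same gap was 1.01, with 0.48 under GF and -0.53 under SPF. The gap is also 1.01 when read between housings, since it uses the same 4 arrays, with GF minus SPF at 0.65 in KO-labelled and -0.37 in WT cells. Pdgfra differed between housings by 0.48 in KO-labelled and -0.41 in WT cells, a gap of 0.89. Myh11 differed by 0.39 between KO-labelled and WT cells under GF and by -0.92 under SPF, a gap of 1.31.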

How the results depend on the processing

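No median of the 10 genes changed direction. Under normexp the SPF genotype median was -0.51 with 0 genes at 2-fold, and the housing median in KO-labelled cells was 0.72 with 3 genes. With the percentile over probes detected on all arrays, the GF genotype median was 0.28 with 2 genes at 2-fold and the KO-labelled housing median 1.23; the deposited table gave 0.36 with 2 genes, and 1.38. Relative to all genes the GF genotype median was 0.28 with 2 genes. Of 40 differences of single genes 38 kept their sign; Col3a1 ranged from -0.0009 to 0.29 and Pdgfra from -0.04 to 0.44 in the GF genotype pair. Over 280 alternative values 86 moved beyond the spot spread. The deposited table moved the median of all genes by 0.29 in the GF genotype and 0.34 in the KO-labelled housing comparison, the other percentile by 0.21 and 0.19. At 2-fold, 835 genes were higher and 983 lower in the SPF genotype pair, against 179 and 92 under normexp. The GF pair gave 1382 and 1220, normexp 287 and 353, the other percentile 2013 and 702, and the deposited scaling 2291 and 571. KO-labelled housing gave 3364 and 2400, normexp 1211 and 1256, the other percentile 4017 and 1855, and the deposited scaling 4613 and 1501. WT housing gave 2735 and 1478, and normexp 999 and 442. Normexp with its offset shrinks differences of dim probes by construction; other causes were not tested. No paired analysis was possible because each group has 1 array and no replicate number. Normexp on mean signals was not run. Signal over background limits Thbs4, Dpt and Pdgfra.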
